A study of Mus musculus with 4 samples.

Results

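The 10 genes of MHC class I antigen presentation examined here were measured in sorted mouse lung cells: the heavy chains H2-K1, H2-D1 and H2-T23, the light chain B2m, the peptide transporter Tap1 and Tap2, the loading factor Tapbp, and the immunoproteasome subunits Psmb8, Psmb9 and Psmb10. They were taken by name, and every array probe carrying one of these names was used. The array held 16 such probes, printed as 34 spots, for 9 of the 10 genes, out of 27340 gene names and 41174 gene probes. No probe carried the name H2-D1. All 9 genes, and all 16 probes, were well above background on all 4 arrays, and none of their spots was saturated, so no filter on dim probes removed any of them.

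The samples were alveolar type II (AT-II) cells, the surfactant-producing epithelial cells of the lung, sorted by flow cytometry. They came from Tlr3-deficient (Tlr3-/-) mice with tumor, Tlr3-deficient mice without tumor, wild-type (WT) mice with tumor and WT mice without tumor. The tumor was Lewis lung carcinoma (LLC), a mouse lung cancer line inoculated under the skin, and the lungs were dissociated 2 weeks later. Tlr3 is a toll-like receptor that senses double-stranded RNA. Each group was 1 one-colour Agilent array, so the design answers how the tumor-bearing lung differed from the tumor-free lung in each genotype, and how the genotypes differed in each condition, only as differences between pairs of arrays. No test or spread between animals can be given, and the number of mice per sample, their age and their strain background are not in the labels.

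Before the results, 3 facts on the arrays need stating. The labels call all mice female, but the array labelled Tlr3-deficient without tumor had an Xist level of -4.05, against 3.80 on the Tlr3-deficient tumor array, 4.04 on the WT tumor array and 4.05 on the WT array without tumor, and Ddx3y, a Y-linked gene, was well above background on that array alone, at 1.08. Every result for tumor against no tumor in Tlr3-deficient mice, and for genotype without tumor, rests on the library labelled Tlr3-deficient without tumor. The other 2 comparisons do not use it. The 4 arrays lay on 3 slides, with the array labelled Tlr3-deficient without tumor and the WT tumor array on the same one, and in each of the 4 comparisons the effects of slide and group cannot be told apart. Spots of one probe scattered more on the WT array without tumor (SD 0.33 on the log2 scale in columns 1 to 51 of the grid and 0.17 in columns 52 to 85) than on the other 3 arrays, where the highest was 0.13. The Tlr3 probe was at -5.30 on the Tlr3-deficient tumor array, at -5.45 on the Tlr3-deficient array without tumor (there not well above background), at -3.94 on the WT tumor array and at -3.93 on the WT array without tumor. The labels do not say which part of the gene is deleted.

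Class I molecules display peptides from inside the cell to CD8 T cells and natural killer cells. The proteasome, in which Psmb8, Psmb9 and Psmb10 can replace the constitutive subunits Psmb5, Psmb6 and Psmb7, cuts proteins into peptides. Tap1 and Tap2 form the transporter that moves the peptides into the endoplasmic reticulum, Tapbp (tapasin) bridges the transporter to the empty class I molecule, and the heavy chain leaves for the surface with B2m and its peptide. Interferons are known to induce most of these genes, through factors that include Irf1 and Nlrc5, and Tap1, Tap2, Tapbp, Psmb8 and Psmb9 lie within the MHC among the class I and class II genes.

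The probes below are shown because each carries the value of a gene on which the results turn, or a class I sequence close to those of other genes. They are the 60-base sequences printed on the array, in lower case, with the annotation's mm9 position. An interval longer than 60 bases means that the probe is not contiguous in the genome.
Tap1 (chr17:34330854-34330913, + strand): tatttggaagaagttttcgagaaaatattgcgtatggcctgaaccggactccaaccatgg
Tap2 (chr17:34351722-34352309, + strand): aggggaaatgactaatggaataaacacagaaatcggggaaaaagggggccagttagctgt
Psmb8 (chr17:34337828-34338152, + strand): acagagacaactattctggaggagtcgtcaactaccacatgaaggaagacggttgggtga
Psmb9 (chr17:34319174-34319233, - strand): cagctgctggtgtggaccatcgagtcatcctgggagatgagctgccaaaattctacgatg
H2-T23 (chr17:36167338-36167574, - strand): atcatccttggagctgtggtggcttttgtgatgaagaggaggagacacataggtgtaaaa
H2-K1, probe in column 36 (chr17:34136478-34136724, - strand): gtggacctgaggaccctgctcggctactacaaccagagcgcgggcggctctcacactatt
H2-K1, probe in column 56 (chr17:34136288-34136347, - strand): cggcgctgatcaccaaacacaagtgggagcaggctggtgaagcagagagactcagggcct

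The class I heavy chain genes are near copies of each other, and their probes can share signal. The H2-T23 probe matched a probe named H2-Q7 at 50 of 59 overlapping bases. The H2-K1 probe in column 36 matched a probe named H2-Bl at 46 of 59 bases, and that in column 56 matched a probe named H2-Q10 at 40 of 52 bases. The values of H2-T23 and of these 2 H2-K1 probes are therefore uncertain as to which heavy chain they measure. Among the class I probes compared, the brightest H2-K1 probe matched only 1 other at 75% or more over at least 40 bases. This was the probe named H2-K1 in column 37 (49 of 57 bases). The column 37 probe had no genome position in the annotation, so which heavy chain it measures is also uncertain. Probes were compared with probes and not with whole transcripts. The few matches of the brightest H2-K1 probe therefore do not show that it measures H2-K1 alone. The accession of the H2-D1 transcript stood in the annotation of 3 probes that the array names H2-L (2 probes) and H2-Q10 (1 probe); they are not counted as H2-D1, and their differences are given with the other class I genes.

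Levels are given as the log2 processed signal minus the array's own 75th percentile, so that 0 is the 75th percentile, and they compare arrays for one probe, not probes with each other. Where a gene had several probes, the brightest represents it. A difference counts as called at 2-fold, which is 1 on the log2 scale. The plot of levels by array shows that 8 of the 9 genes were highest on the Tlr3-deficient tumor array, whereas 20.1% of the 15667 genes that passed the background limit on every array were highest there. Of the 9, 7 were lowest on the Tlr3-deficient array without tumor, against 29.5% of those genes.

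**Figure D1:**
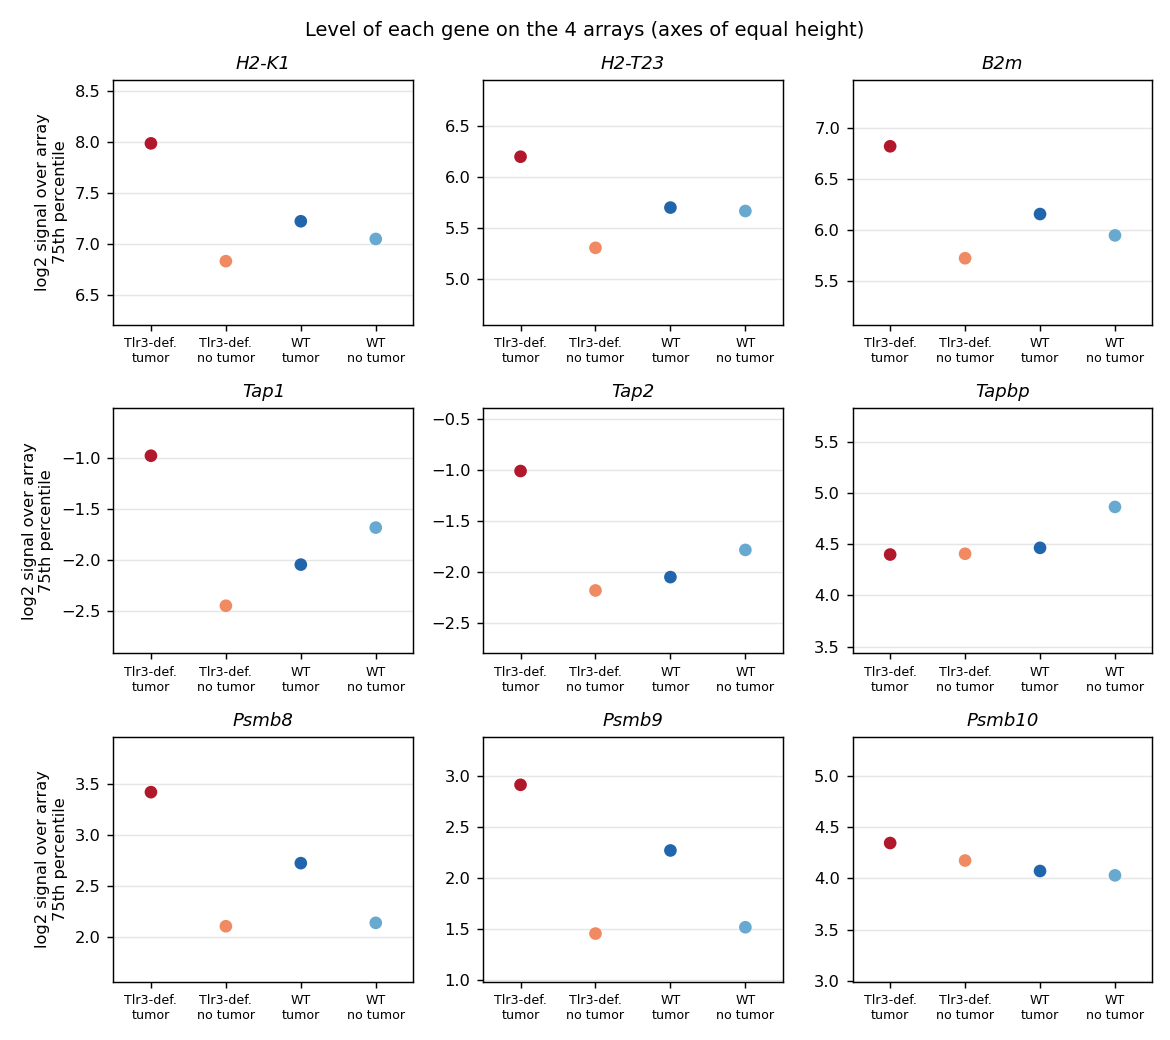
Level of each of the 9 genes on the 4 arrays (vertical axes: log2 processed signal minus the array's 75th percentile, all of equal height; each point is 1 array, brightest probe). The Tlr3-deficient tumor array is the highest point for all but Tapbp.

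Among the heavy chains, H2-K1, a classical class I molecule, had a level of 7.99 in Tlr3-deficient mice with tumor, 6.83 in Tlr3-deficient mice without tumor, 7.22 in WT mice with tumor and 7.05 in WT mice without tumor. Its leading probe was printed as 10 spots. On the Tlr3-deficient tumor array these ran from 224000 to 239000 in processed signal (median 227500), and on the Tlr3-deficient array without tumor from 82300 to 90500 (median 86100). They ran from 105000 to 126000 (median 120000) on the WT tumor array and from 55400 to 84500 (median 75000) on the WT array without tumor. The spots of the Tlr3-deficient tumor array overlapped those of no other array.

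The tumor difference of H2-K1 was 1.15 in Tlr3-deficient mice (2.22-fold, standard error over spots 0.016) and 0.17 in WT mice (1.13-fold, standard error 0.066). These errors cover the spots of an array, not animals. The genotype difference was 0.76 with tumor and -0.22 without tumor. The other 3 H2-K1 probes gave tumor differences of 1.33 (column 37), 1.44 (column 36) and 1.80 (column 56) in Tlr3-deficient mice, so all 4 were called there. In WT mice the 4 probes lay between -0.08 and 0.46, and none was called. With tumor, 3 of the 4 were at least 2-fold higher in Tlr3-deficient than in WT mice (range of the 4, 0.76 to 1.42), the exception being the leading probe. Without tumor, the genotype difference was 0.31 for the column 37 probe, against -0.45 (column 36) and -0.46 (column 56). Which heavy chain these 3 probes measure is uncertain, as given above, and the leading probe was not compared with other class I transcripts.

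H2-T23, which encodes the nonclassical molecule Qa-1 that presents peptides to natural killer cell receptors, was at 6.20 in Tlr3-deficient mice with tumor, 5.31 in Tlr3-deficient mice without tumor, 5.70 in WT mice with tumor and 5.67 in WT mice without tumor. Its tumor difference was 0.89 in Tlr3-deficient mice, just under 2-fold, and 0.03 in WT mice. The genotype difference was 0.50 with tumor and -0.36 without tumor. The technical error of a difference for this single-spot probe, from the scanner's error model, was 0.20.

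B2m, the light chain that every classical heavy chain needs to fold, was at 6.82 in Tlr3-deficient mice with tumor, 5.72 in Tlr3-deficient mice without tumor, 6.15 in WT mice with tumor and 5.95 in WT mice without tumor. The tumor difference was 1.10 (2.14-fold) in Tlr3-deficient mice and 0.21 (1.16-fold) in WT mice. A second B2m probe was printed as 10 spots, of which 1 on the WT tumor array and 3 on the WT array without tumor were set aside as outliers by the scanner software.

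The remaining spots of that probe ran from 39900 to 44000 in processed signal on the Tlr3-deficient tumor array (10 spots), and from 15700 to 17100 on the Tlr3-deficient array without tumor (10 spots). They ran from 18000 to 23300 on the WT tumor array (9 spots) and from 11700 to 13600 on the WT array without tumor (7 spots). Its tumor difference was 1.08 (standard error over spots 0.022) in Tlr3-deficient mice and 0.30 (standard error 0.049) in WT mice. The remaining, much dimmer probe gave 0.78 in Tlr3-deficient and 0.17 in WT mice. Averaged over its 3 probes, B2m was at 0.99 in the Tlr3-deficient tumor comparison and no longer called.

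**Figure D2:**
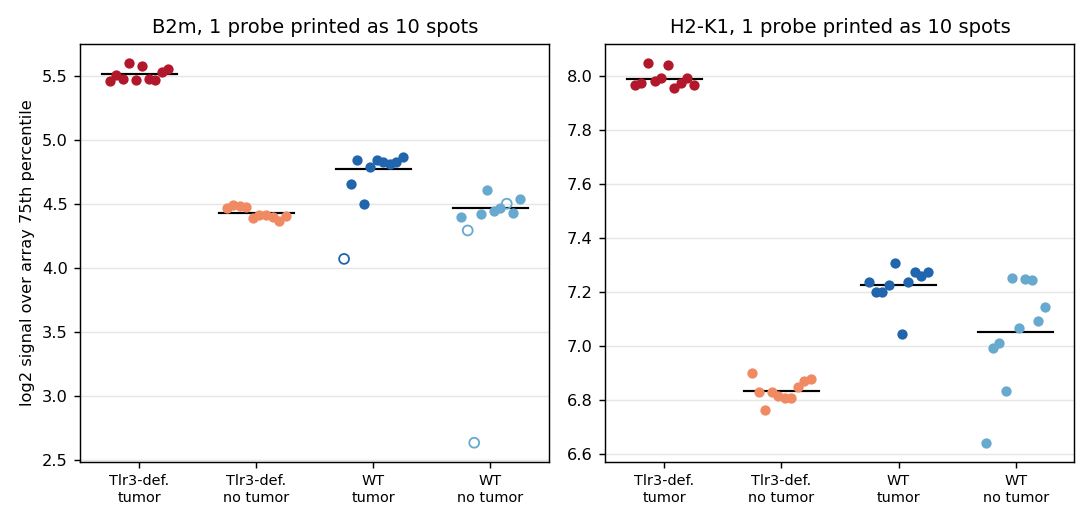
Spots of the B2m probe and of the H2-K1 probe printed 10 times (vertical axes: log2 processed signal minus the array's 75th percentile; filled points are used spots, open points spots that the scanner software set aside, bars the mean of the used spots). For both probes, all spots of the Tlr3-deficient tumor array lie above those of the other 3 arrays, and the WT array without tumor scatters most for H2-K1 (SD 0.20 on the log2 scale).

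Tap1 and Tap2 form the peptide transporter. Tap1 was at -0.98 in Tlr3-deficient mice with tumor, -2.45 in Tlr3-deficient mice without tumor, -2.04 in WT mice with tumor and -1.68 in WT mice without tumor. Tap2 was at -1.01 in Tlr3-deficient mice with tumor, -2.18 in Tlr3-deficient mice without tumor, -2.05 in WT mice with tumor and -1.79 in WT mice without tumor. For both, the array of tumor-bearing Tlr3-deficient mice stood above the other 3, which lay within 0.77 (Tap1) and 0.40 (Tap2) of each other.

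With tumor, Tap1 was 2.09-fold and Tap2 2.05-fold higher in Tlr3-deficient than in WT mice, which made them the 2 genes called of the 9 in a comparison where 2.92% of 18107 genes were at least 2-fold higher. After another background correction (normexp, a model of signal plus noise) they were at 0.80 and 0.79 on the log2 scale and neither was called. The tumor difference of Tap1 was 1.47 (2.77-fold) in Tlr3-deficient mice and -0.36 in WT mice, and that of Tap2 was 1.17 (2.25-fold) and -0.27. Under normexp Tap2 was at 0.88 in the Tlr3-deficient tumor comparison, below the 2-fold line, and Tap1 at 1.10. The WT differences were within 2 technical errors of 0 for both genes (error 0.21 each).

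Tapbp did not follow the transporter. It was at 4.40 in Tlr3-deficient mice with tumor, 4.41 in Tlr3-deficient mice without tumor, 4.47 in WT mice with tumor and 4.87 in WT mice without tumor. Its tumor difference was -0.01 in Tlr3-deficient and -0.40 in WT mice, and its genotype difference was -0.07 with tumor and -0.46 without tumor. A second, dimmer Tapbp probe gave tumor differences of 0.45 in Tlr3-deficient and -0.33 in WT mice. No gap between neighbouring arrays in the order of Tapbp levels was over 2 technical errors. Between arrays further apart, the genotype difference without tumor was over 2 errors (error 0.20), also by the second probe (-0.55, error 0.20). The second probe's tumor difference in Tlr3-deficient mice was over 2 errors too (error 0.20). Both probes lie in columns 1 to 51 of the grid (columns 31 and 4), where the WT array without tumor scattered more.

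Of the immunoproteasome subunits, Psmb8 (LMP7) was at 3.42 in Tlr3-deficient mice with tumor, 2.11 in Tlr3-deficient mice without tumor, 2.73 in WT mice with tumor and 2.14 in WT mice without tumor. Psmb9 (LMP2) was at 2.91 in Tlr3-deficient mice with tumor, 1.46 in Tlr3-deficient mice without tumor, 2.27 in WT mice with tumor and 1.52 in WT mice without tumor. For both genes the 2 tumor arrays were the 2 highest, and the tumor-free arrays differed by 0.03 for Psmb8 and 0.06 for Psmb9, less than the technical error of 0.20. Psmb8 had a tumor difference of 1.31 (2.48-fold) in Tlr3-deficient mice and 0.58 (1.5-fold) in WT mice, and its second probe gave 1.35 and 0.69. For Psmb9 the tumor difference was 1.46 (2.75-fold) in Tlr3-deficient mice and 0.75 (1.68-fold) in WT mice, the largest WT tumor difference of the 9 genes. The single spot of Psmb9 lay in column 2 of the grid, and those of the Psmb8 probes in columns 14 and 48. All are in the part where the WT array without tumor scattered more.

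Psmb10 (MECL-1), encoded outside the MHC on chromosome 8, was at 4.35 in Tlr3-deficient mice with tumor, 4.18 in Tlr3-deficient mice without tumor, 4.07 in WT mice with tumor and 4.03 in WT mice without tumor. Its tumor difference was 0.17 in Tlr3-deficient and 0.04 in WT mice. As for Tapbp, no gap between neighbouring arrays was over 2 technical errors. The 3 subunits of the immunoproteasome thus gave 2 called genes and 1 that was not in the Tlr3-deficient tumor comparison.

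Over the 9 genes, tumor against no tumor in Tlr3-deficient mice gave 6 genes at least 2-fold higher (H2-K1, B2m, Tap1, Tap2, Psmb8 and Psmb9) and 0 lower. Over all 17994 genes tested there, 4.51% were at least 2-fold higher and 3.9% at least 2-fold lower. The median difference of the 9 was 1.15, against -0.01 for all genes. By probe, 11 of 16 were at least 2-fold higher and 15 were above 0.

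Tumor against no tumor in WT mice gave 0 of 9 genes called in either direction, where 5.65% of 17818 genes were at least 2-fold higher and 1.55% at least 2-fold lower. The median of the 9 was 0.04, with a range of -0.40 to 0.75, and the median of all genes was 0.00 to 2 decimals. None of the 16 probes was called.

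For Tlr3-deficient against WT mice with tumor, the median of the 9 was 0.66, with 2 higher and 0 lower, against -0.05 for all genes and 2.64% of genes lower. In mice without tumor the median was -0.22, with 0 called in either direction and 8 of 9 below 0. Over all 17487 genes tested in that comparison, 5.9% were at least 2-fold higher, 2.34% were lower and the median was -0.04. Comparisons that share an array are not independent of each other, so the counts are each array pair's own.

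The 2 tumor comparisons share no array, and their difference could be set out for each gene. The tumor difference in Tlr3-deficient mice minus that in WT mice was above 0 for all 9 genes, from 0.13 (Psmb10) to 1.83 (Tap1), with a median of 0.86. Over those 15667 genes the median was 0.02, and 2.12% were at least 1 higher on the log2 scale, as were Tap1 and Tap2 (2 of 9). This difference was not tested, since it rests on 4 single arrays, 1 of which goes against its label for sex. Without that array, the Tlr3-deficient tumor array stood above the WT tumor array by the values given above, and above the WT array without tumor by a median of 0.77 (range -0.47 to 1.39), with 8 of 9 genes above 0 and 2 called. On the shared slide, the array labelled Tlr3-deficient without tumor stood below the WT tumor array in 8 of 9 genes (median difference -0.39, range -0.81 to 0.10), with 0 called.

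**Figure D3:**
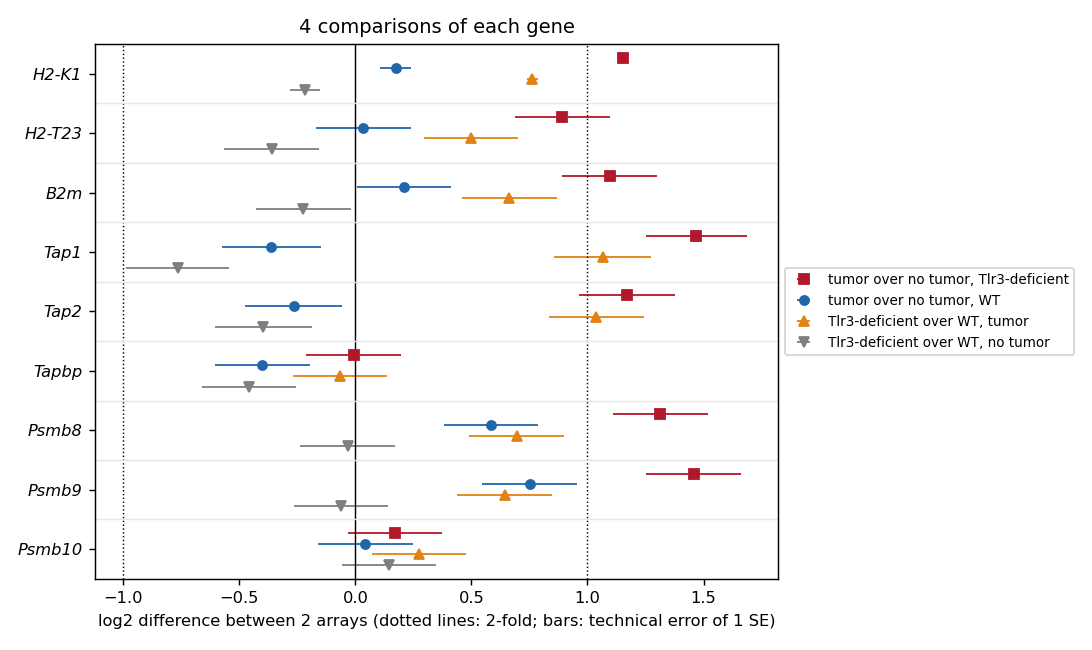
Log2 differences of the 9 genes in 4 array pairs (horizontal axis; squares, tumor over no tumor in Tlr3-deficient mice; circles, the same in WT mice; triangles up, Tlr3-deficient over WT with tumor; triangles down, the same without tumor; bars, 1 technical standard error from replicate spots for H2-K1 and from the scanner's error model for the others; dotted lines, 2-fold). The squares of 6 genes lie beyond the 2-fold line, and no circle does.

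In the order of the 4 arrays, the first place was separated from the second by more than 2 technical errors for 7 of the 8 genes led by the Tlr3-deficient tumor array, Psmb10 being the exception. Of the 27 gaps between neighbours over the 9 genes, each by its brightest probe, 11 were over 2 technical errors. For H2-T23, Tap1 and Tap2 no gap between neighbours among the other 3 arrays exceeded 2 technical errors. For B2m none did by its brightest probe, while its 10-spot probe gave the gap of 0.30 (standard error 0.049) between the WT arrays with and without tumor. Arrays that are not neighbours can differ by more. For Tap1 the Tlr3-deficient and WT arrays without tumor differed by -0.77 (technical error 0.22), over 2 errors. For H2-T23 (-0.36, error 0.20) and Tap2 (-0.40, error 0.21) that difference was not over 2 errors. For Psmb8 and Psmb9 the WT tumor array stood above both tumor-free arrays, which could not be told apart. The scanner's error for these single spots (0.20) is smaller than the SD of 0.33 between spots in columns 1 to 51 of the WT array without tumor. Both probes lie there, so their gaps between the WT arrays (0.58 and 0.75) are less certain. The count of gaps has the same limit for other single spots on that array.

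Other class I genes on the array, from a list of 28 with 22 on the array, had a median tumor difference of 1.19 in Tlr3-deficient mice, with 10 of 15 tested genes at least 2-fold higher and 0 lower. In WT mice 1 of 16 was higher (Mr1, which presents vitamin B metabolites, at 2.47-fold) and the median was 0.08. By the brightest probe of each gene, the largest differences in Tlr3-deficient mice were those of H2-Q5 (8.65-fold), H2-M3, which presents formylated bacterial peptides (5.36-fold), and H2-Bl (3.42-fold). The brightest probe named H2-Q10 is the one annotated with the H2-D1 transcript. Other probes of that name, well above background on all 4 arrays, gave log2 tumor differences of 3.23, 2.40 and 1.57 in Tlr3-deficient mice. In WT mice they gave 0.67, 1.06 and -0.24, so ranking and counts depend on the probe. H2-Q5 was at 3.87 in Tlr3-deficient mice with tumor, 0.76 in Tlr3-deficient mice without tumor, 1.52 in WT mice with tumor and 0.64 in WT mice without tumor. With tumor, 3 of 16 genes were at least 2-fold higher in Tlr3-deficient than in WT mice: H2-Q5 (5.08-fold), H2-Bl (2.77-fold) and H2-T24 (2.31-fold). Without tumor, H2-M3 was 3.0-fold lower in Tlr3-deficient mice and none was higher. The 3 probes annotated with the H2-D1 transcript gave tumor differences of 1.15, 1.19 and 1.25 in Tlr3-deficient mice, and -0.17, -0.49 and 0.06 in WT mice.

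Of 15 genes of peptide loading and trimming, all tested, 0 were called in any of the 4 comparisons. Calr, a chaperone of the loading complex, had tumor differences of 0.00 in Tlr3-deficient and -0.01 in WT mice. Pdia3, the disulfide isomerase bound to tapasin, had 0.44 and -0.48, and was 1.90-fold higher in Tlr3-deficient than in WT mice with tumor. Of 18 tested genes of the constitutive proteasome, its assembly and its activators, 0 were called in any comparison. The constitutive counterparts of the 3 immunoproteasome subunits, Psmb6, Psmb7 and Psmb5, had tumor differences of 0.11, 0.28 and -0.08 in Tlr3-deficient mice, and 0.09, -0.03 and -0.37 in WT mice. The activator subunits Psme1 and Psme2 had 0.13 and 0.18 in Tlr3-deficient mice, and -0.16 and 0.37 in WT mice.

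Of the tested regulators and interferon receptors, 0 of 26 were called in either tumor comparison or in genotype with tumor, and 0 of 25 in genotype without tumor. Irf1 had tumor differences of 0.17 in Tlr3-deficient and 0.36 in WT mice. Nlrc5, a transactivator of class I genes, was well above background on the 2 tumor arrays only, at -4.53 in Tlr3-deficient and -4.94 in WT mice, and was not called (at least 1.40-fold higher with tumor in Tlr3-deficient mice and at least 1.24-fold in WT mice).

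Some of the genes that interferon gamma induces in many cells were called. Of 14 tested, 2 reached 2-fold in tumor over no tumor in Tlr3-deficient mice: the chemokine Cxcl9 (at least 2.27-fold) and the GTPase Ifi47 (2.06-fold). In WT mice 3 were: Gbp3 (2.33-fold), Cxcl9 (at least 2.12-fold) and Cd274, which encodes PD-L1 (2.06-fold). Over all genes, 4.51% were at least 2-fold higher in the Tlr3-deficient tumor comparison and 5.65% in the WT one. The list's median tumor difference was 0.50 in Tlr3-deficient and 0.48 in WT mice. With tumor, Ifi47 (5.17-fold) and Gbp4 (2.19-fold) were higher in Tlr3-deficient than in WT mice. Without tumor, Ifi47 (3.56-fold), Gbp3 (2.4-fold) and Gbp7 (2.03-fold) were higher in Tlr3-deficient mice. These were 2 of 14 tested with tumor and 3 of 13 without, where 2.92% and 5.9% of all genes were higher.

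Of 15 tested genes induced by type I interferon, 0 were higher and 2 were lower with tumor in Tlr3-deficient mice (Ifit1, 2.44-fold, and Ifit3, 2.19-fold). In WT mice 1 was higher, Rsad2 (viperin), at 7.60-fold. Rsad2 was also 3.66-fold lower in Tlr3-deficient than in WT mice with tumor, the only call of that list in that comparison. Without tumor 4 were higher in Tlr3-deficient mice, among them Rsad2 (2.57-fold), Ifit2 (2.30-fold) and Ifit3 (2.29-fold).

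Class II presentation, the route for peptides taken up from outside, showed 4 of 10 tested genes at least 2-fold higher with tumor in Tlr3-deficient mice, the largest being H2-DMb2 (8.18-fold), the protease gene Ctss (6.25-fold) and H2-Oa (5.52-fold). In WT mice 1 of 9 was higher, Ctss at 2.83-fold. H2-DMb2 and H2-Oa were not called there, at bounds of at least 1.60-fold and 1.95-fold. Their tumor-free levels in Tlr3-deficient mice, -4.98 and -5.00, were close to the dimmest that passed the background limit (-5.22). Their folds in that genotype are therefore uncertain. H2-Aa, H2-Ab1, H2-Eb1, H2-DMb1 and Cd74 were not called in either genotype. Their tumor differences ran from 0.34 to 0.80 in Tlr3-deficient mice and from -0.11 to 0.47 in WT mice. With tumor, H2-DMb2 (6.13-fold) and H2-Oa (3.36-fold) were higher in Tlr3-deficient than in WT mice. Among receptors and coreceptors of class I molecules, Pirb, an inhibitory receptor of myeloid and B cells, was 9.74-fold higher with tumor in Tlr3-deficient mice and 11.5-fold in WT mice. Cd8b1, a chain of the CD8 coreceptor, was 2.91-fold higher in Tlr3-deficient mice and at least 2.00-fold in WT mice. On the Tlr3-deficient array without tumor it was at -5.02, close to the dimmest signal well above background there. Cd8a, Klrc1, Klrk1 and the Klra genes of the same list were not well above background on any array.

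All nucleated cells carry class I molecules, and blood cells carry them in large amounts, so the markers of other cells are given here with the results. The defining markers of AT-II cells were bright on every array: Sftpc, the surfactant protein made by these cells, was at 9.03 in Tlr3-deficient mice with tumor, 9.39 in Tlr3-deficient mice without tumor, 9.30 in WT mice with tumor and 8.84 in WT mice without tumor. All 15 AT-II markers were well above background on the 4 arrays, 0 were called in any comparison, and their summed signal was 2013 times the array's 75th percentile in Tlr3-deficient mice with tumor, 2157 in Tlr3-deficient mice without tumor, 2298 in WT mice with tumor and 2291 in WT mice without tumor. In a bulk sample, fewer cells of a type and less RNA per cell cannot be told apart.

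Of 12 markers shared by leukocytes, 9 differed upward by at least 2-fold between tumor and no tumor in Tlr3-deficient mice and 9 in WT mice, with medians of 1.57 and 1.64 where a gene below background is set at its bound. Ptprc (CD45) was at -0.55 in Tlr3-deficient mice with tumor, -3.79 in Tlr3-deficient mice without tumor, -0.52 in WT mice with tumor and -3.21 in WT mice without tumor. The summed signal of the list, in multiples of the array's 75th percentile, was 23.7 in Tlr3-deficient mice with tumor, 11 in Tlr3-deficient mice without tumor, 24.8 in WT mice with tumor and 12.6 in WT mice without tumor. Between the genotypes with tumor 0 of 12 were called and the median was -0.01. All 12 were well above background on both tumor arrays, and 11 on each tumor-free array, Cd53 being the exception.

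Neutrophil markers were higher with tumor for 10 of 11 tested genes in Tlr3-deficient mice and 10 of 11 in WT mice, with medians at their bounds of 3.02 and 2.92. S100a8, which encodes a calcium-binding protein abundant in neutrophils, was 28.8-fold higher in Tlr3-deficient mice and 41.9-fold in WT mice. Their summed signal was 68.6 in Tlr3-deficient mice with tumor, 3.55 in Tlr3-deficient mice without tumor, 106.8 in WT mice with tumor and 3.93 in WT mice without tumor. Elane was not well above background on any array. With tumor, Mpo was 6.47-fold higher and Ltf 2.87-fold lower in Tlr3-deficient than in WT mice.

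Of 9 tested alveolar macrophage markers, 4 reached 2-fold in tumor over no tumor in Tlr3-deficient mice, led by Itgax (6.81-fold) and Chil3 (4.59-fold), and 2 in WT mice, Itgax (2.4-fold) and Fabp4 (2.23-fold). The list's median tumor difference was 0.95 in Tlr3-deficient mice and 0.20 in WT mice. With tumor, 2 of 9 were higher in Tlr3-deficient than in WT mice, Chil3 (3.36-fold) and Marco (3.14-fold), and the median was 0.75. The summed signal was 13.3 in Tlr3-deficient mice with tumor, 4.82 in Tlr3-deficient mice without tumor, 6.08 in WT mice with tumor and 6.33 in WT mice without tumor. The defining markers Siglecf and Siglec1 were not well above background on any array. The part that these markers have in the class I differences was not tested.

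**Figure D4:**
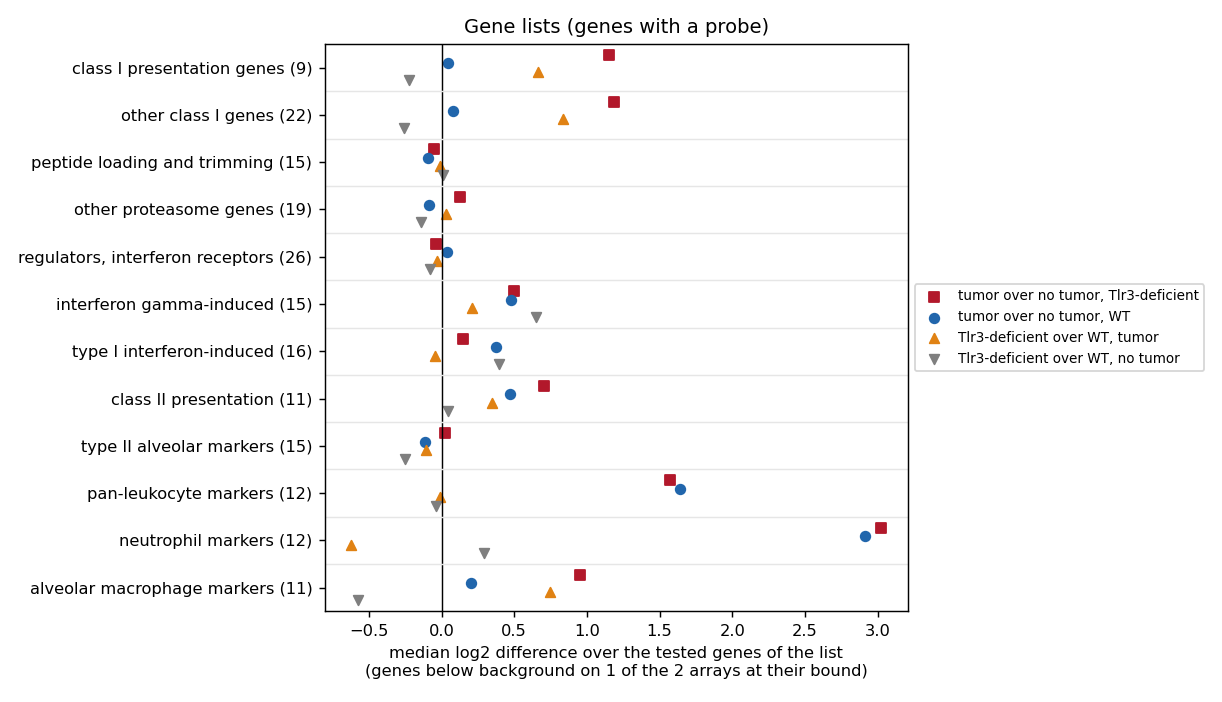
Median log2 difference of 12 gene lists in the 4 array pairs (horizontal axis; a gene below background on 1 array of a pair enters at its bound; numbers in brackets are genes with a probe; symbols as for the 4 comparisons of single genes). Leukocyte and neutrophil markers lie far to the right in both tumor comparisons. The class I genes do so for Tlr3-deficient mice (median 1.15) and not for WT mice (0.04). Alveolar macrophage markers had medians of 0.95 in Tlr3-deficient mice and 0.20 in WT mice.

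Of the smaller lists, 3 of 6 tested T and natural killer cell markers were higher with tumor in Tlr3-deficient mice, among them Cd3d (at least 2.4-fold) and Lck (at least 2.35-fold), and 0 of 6 in WT mice. With tumor Cd3d was at least 2.71-fold higher in Tlr3-deficient than in WT mice, the only call of 7 tested, and the list's median was -0.21. Cd3e, another T cell marker, was at -0.43 there and at -0.31 for tumor against no tumor in Tlr3-deficient mice. B cell markers gave 2 of 7 higher in Tlr3-deficient mice, Ms4a1 (at least 3.67-fold) and Ighm (3.21-fold), and 2 of 6 in WT mice, Ighm (3.62-fold) and Ms4a1 (at least 2.76-fold). Type I alveolar markers, from the flat cells that AT-II cells can become, were lower with tumor for 5 of 9 genes in Tlr3-deficient mice and 3 of 9 in WT mice. Rtkn2 was the largest of these, at 3.52-fold lower in Tlr3-deficient and 2.92-fold lower in WT mice. Fibroblast markers were lower for 3 of 8 genes in Tlr3-deficient mice, led by Col3a1 (5.0-fold) and Col1a1 (4.11-fold), and for 0 of 8 in WT mice. Of the monocyte and dendritic cell markers, Ccr2 was the only call, higher with tumor in both genotypes, by at least 2.13-fold in WT mice. In Tlr3-deficient mice its brightest probe was at -3.15 with tumor and at -6.89 without. The latter is below the dimmest signal well above background on that array (-5.22), so no measured fold is given. None of 9 endothelial or 6 airway markers was called in either tumor comparison.

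**Figure D5:**
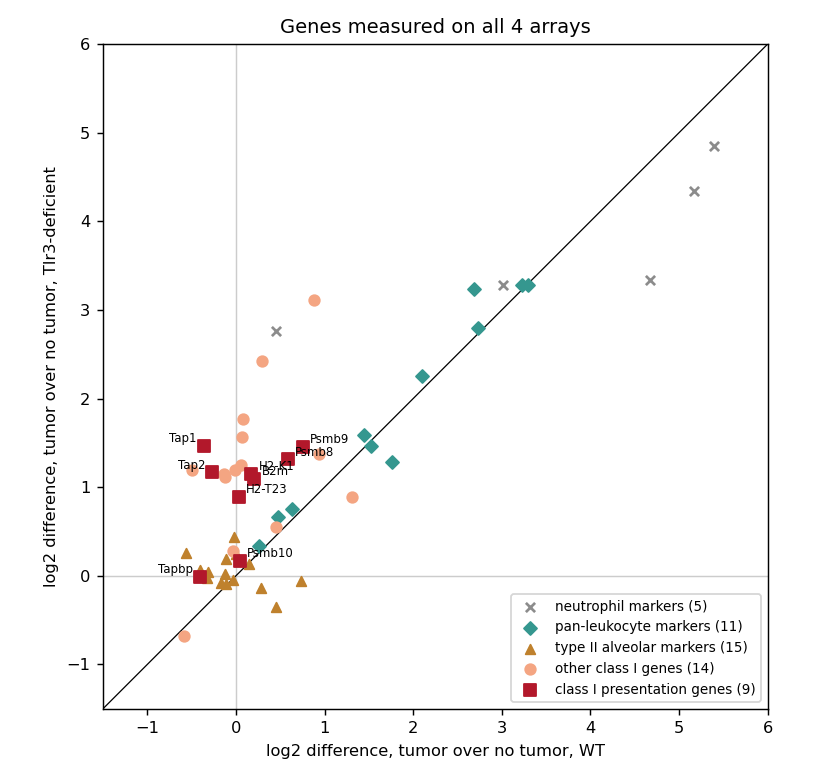
Tumor difference in Tlr3-deficient mice (vertical axis, log2) against that in WT mice (horizontal axis, log2) for genes well above background on all 4 arrays (each point 1 gene; line, equal differences; numbers in brackets are genes drawn). Leukocyte markers lie near the line, and most class I genes lie above it, with Tap1 and Tap2 left of 0 on the WT axis.

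Position in the MHC was compared after the values had been seen, as a description. Between the outermost of the class I presentation probes on chromosome 17 (chr17:34063096-36167574, mm9), 111 further genes were neither class I nor class II. Of the 97 tested with tumor in Tlr3-deficient mice, 8 were at least 2-fold higher and 0 lower, with a median of 0.03. In WT mice 8 of 96 were higher, 2 were lower and the median was -0.04. The 9 other class I genes of the interval had medians of 1.19 in Tlr3-deficient and 0.06 in WT mice.

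The promoters are shown because 6 of the 9 genes measured were at least 2-fold higher in the same comparison, tumor against no tumor in Tlr3-deficient mice. H2-T23, Tapbp and Psmb10 were not among them. The RefSeq table held 9 of the 10 genes, Tap2 being the one without an entry, and the 250 bases before each start were searched on both strands for fixed patterns. Stretches of 4 follow, 5′ to 3′ on the strand given, on GRCm38.p6, with every match to a searched pattern in capitals.
H2-K1 (chr17:34000398-34000497, - strand): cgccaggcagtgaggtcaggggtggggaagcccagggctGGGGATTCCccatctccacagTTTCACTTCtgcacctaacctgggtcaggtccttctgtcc
H2-D1 (chr17:35262884-35262983, + strand): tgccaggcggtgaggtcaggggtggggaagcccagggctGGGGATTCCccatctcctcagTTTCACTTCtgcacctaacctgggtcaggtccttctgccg
B2m (chr2:122147487-122147636, + strand): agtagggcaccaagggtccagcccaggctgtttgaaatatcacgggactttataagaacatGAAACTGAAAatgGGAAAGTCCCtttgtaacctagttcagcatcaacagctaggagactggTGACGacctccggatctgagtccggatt
Between the starts of Psmb9 and Tap1 (chr17:34187331-34187555, + strand): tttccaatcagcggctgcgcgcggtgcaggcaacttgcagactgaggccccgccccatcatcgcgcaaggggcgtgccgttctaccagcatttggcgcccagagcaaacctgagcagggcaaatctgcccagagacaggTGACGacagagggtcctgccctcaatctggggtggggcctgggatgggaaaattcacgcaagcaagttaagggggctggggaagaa

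The interferon-stimulated response element, searched as GAAA, any 2 bases and GAAA, was found before B2m and H2-T23, 2 of 9 genes, and before 3.04% of 27025 genes. A shorter form added after the promoters had been read, GAANNGAAA, which does not take in the first, was found before H2-K1 and H2-D1 and before 6.34% of genes. The kappa B pattern GGGNNTTCC was found before H2-K1 and H2-D1 (4.88% of genes), and its longer form with 3 free bases before B2m (4.60% of genes). The pattern TTCNNNGAA, the gamma-activated site, was found before Psmb8 (7.18% of genes). The short pattern TGACG, the core of the cyclic AMP response element, was found before 5 of the 9 (H2-K1, H2-D1, B2m, Tap1 and Psmb9) and before 17.9% of genes. None of these patterns was found before Tapbp or Psmb10. H2-T23, also not called for tumor in Tlr3-deficient mice, had the interferon-stimulated response element. The called Tap1 and Psmb9 had only TGACG, so the patterns did not separate called from uncalled genes. A match is a run of letters and not a bound site.

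The bases before the H2-K1 and H2-D1 starts matched at 166 of 190 aligned positions. Tap1 and Psmb9 start 225 bases apart and run in opposite directions, so the last stretch shown precedes both, and the TGACG in it counts for both. This pair had tumor differences of 1.47 (Tap1) and 1.46 (Psmb9) in Tlr3-deficient mice, and of -0.36 (Tap1) and 0.75 (Psmb9) in WT mice.

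Genes outside the group with a similar pattern were sought by the root mean square difference between a gene's levels over the 4 arrays, centred on their own mean, and the mean centred levels of the 9. That mean pattern was 0.57 in Tlr3-deficient mice with tumor, -0.40 in Tlr3-deficient mice without tumor, -0.05 in WT mice with tumor and -0.13 in WT mice without tumor. The 5 nearest of 15658 genes were Ofd1, Srms, Stat5a, Efna3 and Rbp4, at 0.02 to 0.05 on the log2 scale, and 436 genes lay within 0.2. The 9 genes themselves lay between 0.06 (H2-T23) and 0.44 (Tapbp) from their mean, so a pattern over 4 arrays was shared by many genes.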

How the data were processed

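Total RNA from sorted AT-II cells was hybridised in 1 colour (Cy3) to 4 Agilent arrays of design 014868, 1 per group. Per the file headers, the authors scanned them and extracted intensity values with Feature Extraction 10.7.3.1, whose processed signal is background-corrected; its annotation is on mm9. The deposited series table holds log2 values that correlated with the log2 processed signal at 0.999 to 1.00 over probes, with column medians of 6.31 to 6.32; its normalization and centring are not given in the sources used here, and it served as an alternative.

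From the scanner intensity values, control spots and spots marked as outliers were left out, the log2 processed signal of spots of one probe was averaged, and each array's 75th percentile over all non-control spots (904 for Tlr3-deficient with tumor, 758 for Tlr3-deficient without, 796 for WT with tumor, 555 for WT without) was subtracted. Probes were named by the RefSeq accession that is their systematic name in the files (GRCm38.p6 table, 27668 probes; further accessions in a probe's annotation were not used), otherwise by the array's name, updated through a unique synonym. A gene was tested in a pair of arrays if well above background on at least 1 of them by any of its probes. If not on the other, the fold is a lower bound against the higher of its own signal and the dimmest signal well above background. With 1 array per group no p-value was computed, and the number of arrays limits the precision. Per the labels, nothing pairs the samples.

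The script was tested on simulated data. The members and lists were chosen with earlier results of these data known. The list genes named are those at least 2-fold different, at most 3 per list and comparison, plus Nlrc5, Irf1, Psme1, Psme2, Psmb5, Psmb6, Psmb7, Calr and Pdia3 (1 further gene named by this rule is not reported here); of markers, Sftpc, Ptprc and the 2 largest per list, of which those past 2-fold and the lists nearest the question are given. Alternatives were 9 planned settings (2 scalings, quantile normalization, normexp with offset 50 in limma 3.58.1, the mean of all probes, 2 filters, the series table, array columns 52 to 85) and 1 chosen after seeing the data (probes with replicate spots). Python 3.11.15, numpy 2.4.6, pandas 2.3.3 and R 4.3.3 were used.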

Additional observations from a re-analysis of the deposited data

Results flagged for a closer look

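Tap1 and Tap2 stood out because their tumor differences had opposite signs in the 2 genotypes: 1.47 in Tlr3-deficient and -0.36 in WT mice for Tap1, and 1.17 in Tlr3-deficient and -0.27 in WT mice for Tap2. The difference between the genotypes was 1.83 for Tap1 and 1.44 for Tap2 on the log2 scale. It was not tested, because each of the 4 groups is 1 array, and the 2 WT values lay within 2 technical errors of 0. The Tlr3-deficient value uses the array whose sex-linked genes go against its label.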

How the results depend on the processing

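No paired analysis was possible because each group was 1 array and the labels carry no replicate numbers. Over the 10 alternatives, the median of the 9 genes lay between 1.07 and 1.19 for tumor in Tlr3-deficient mice, -0.11 and 0.17 for tumor in WT mice, 0.64 and 0.72 for genotype with tumor, and -0.32 and -0.11 for genotype without tumor. The median of the genes' genotype difference in the tumor difference lay between 0.70 and 1.01. No gene was called in WT tumor or in genotype without tumor under any alternative, and no called gene changed sign. With array columns 52 to 85, which held 4 of the 9 genes, 3 reached 2-fold for tumor in Tlr3-deficient mice and 1 for genotype with tumor; fewer genes enter there. With the mean of all probes 3 genes were called in genotype with tumor, H2-K1 (1.10) being the added one. Under normexp 0 were called in genotype with tumor, and the cause was not tested. Of 340 single-gene values, 323 moved by less than the replicate-spot SD (0.11 to 0.29 by comparison) and 17 by more. Over all genes, the count at least 2-fold higher ranged from 366 to 1443 (main setting 811) for tumor in Tlr3-deficient mice, 276 to 2072 (1006) in WT mice, 221 to 1042 (528) for genotype with tumor and 186 to 2101 (1032) without tumor. Those at least 2-fold lower ranged from 229 to 1567 (702), 124 to 812 (277), 185 to 1262 (478) and 234 to 1020 (409) in the same order of comparisons. Higher genes made up 78.4% of WT tumor calls, against 63.7% after centring on the median, which moved the median of all genes by -0.15 in that comparison, and 66.7% after quantile normalization. In genotype without tumor the share was 71.6%, against 44.3% in columns 52 to 85. Single spots and 1 array per group limit every value.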
